A study of Homo sapiens with 9 samples.

Results

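The 10 genes described here carry out the storage, uptake and regulation of cellular iron. They are *FTH1*, *FTL*, *TFRC*, *SLC11A1*, *SLC11A2*, *IREB2*, *ACO1*, *NCOA4*, *SLC25A37* and *SLC25A28*. They were taken by name from a list of iron handling genes, with earlier results of these data known. All 10 were found among the 57338 genes of the deposited table.

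Iron enters most cells bound to transferrin through the transferrin receptor (TFRC), is moved across the endosomal membrane by the divalent metal transporter SLC11A2, and is either used, sent to mitochondria through the mitoferrins SLC25A37 and SLC25A28, or stored in ferritin, a shell built from heavy (FTH1) and light (FTL) chains. NCOA4 carries ferritin to lysosomes, where the stored iron is released, and SLC11A1 exports divalent metals from the phagosomes of macrophages and neutrophils. The iron regulatory proteins ACO1 and IREB2 bind a stem loop in mRNAs, the iron-responsive element, when iron is scarce. Binding in the 5′ UTR blocks translation of the ferritin mRNAs, and binding in the 3′ UTR protects the *TFRC* mRNA from decay.

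Stem loops of these 3 mRNAs that match the pattern below are shown because they are classical sites on which ACO1 and IREB2 act. An isoform of *SLC11A2* is also known to carry such an element in its 3′ UTR, with a stem that has a further bulge. The sequences were read from the GENCODE 29 transcripts (GRCh38), 5′ to 3′ in the sense of the transcript, and the capitals mark the loop CAGTGN (N other than G). Each was required to have a C bulge before an upper stem of 5 base pairs and a lower stem with at least 3 base pairs, G-T pairs included, and the transcript strand alone was searched.
FTH1 5′ UTR, chr11:61967575-61967601, minus strand: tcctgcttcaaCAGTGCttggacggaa
FTL 5′ UTR, chr19:48965336-48965362, plus strand: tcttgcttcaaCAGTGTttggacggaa
TFRC 3′ UTR, chr3:196050980-196051006, minus strand: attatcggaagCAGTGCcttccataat
TFRC 3′ UTR, chr3:196050576-196050602, minus strand: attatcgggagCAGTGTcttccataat
TFRC 3′ UTR, chr3:196050511-196050537, minus strand: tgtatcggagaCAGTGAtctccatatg
TFRC 3′ UTR, chr3:196050464-196050490, minus strand: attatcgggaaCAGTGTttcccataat

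The element of *FTH1* lay in 7 of its 8 protein-coding transcripts, that of *FTL* in its 1 protein-coding transcript, and the 4 matches in *TFRC* in 3 of its 4. An element with another loop or stem would be missed, so 4 need not be all that *TFRC* holds. The pattern, which allows no further bulge, was not matched in the protein-coding transcripts of the other 7 genes, *SLC11A2* among them. Of 19669 genes with a protein-coding transcript, 58 (0.295%) held at least 1 match, and *TFRC* was the 1 gene with at least 4.

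RNA was measured in HEK293T cells, which derive from human embryonic kidney. They had received a plasmid that encodes EGFP (empty vector) or a fusion of EGFP with human protamine 1 (hPRM1) or protamine 2 (hPRM2), the proteins that pack sperm DNA. Live cells with high EGFP signal were sorted 3 days later, and each condition had 3 libraries made from the 3′ ends of polyadenylated RNA. The deposited values are RPKM, reads of a gene scaled to its length in kilobases and to the reads of the library. A read at the 3′ end does not become more frequent in a longer gene, so levels of different genes on this scale depend on the lengths used. Nothing in the labels says that the libraries of a condition came from separate cultures, and p-values then measure the spread between libraries.

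The libraries labelled hPRM1 did not match their label. All 9 libraries listed *PRM1* at 0 RPKM, while *PRM2* reached 71224, 60050 and 36130 RPKM in the hPRM2 libraries and was listed at 0 in the other 6. In the libraries labelled hPRM1, *HBB* (beta globin) stood at 892449, 798019 and 765727 RPKM, and it was listed at 0 in the other 6. The summed level of 15 markers of neutrophils and monocytes was between 6941 and 8131 RPKM there, against 40.4 to 41.8 RPKM in the empty vector and 16.3 to 66.5 RPKM in hPRM2. *VCAN* alone was at 40.7, 38.0 and 39.8 RPKM in the empty vector. For 15 lymphocyte markers the sum was 991 to 1272 RPKM under the label hPRM1, while the empty vector reached 4.71 RPKM and hPRM2 71.0 RPKM. In hPRM2, 12 of the 15 were listed at 0 and *LCK*, a kinase of T cells, alone was at 70.6, 45.3 and 33.3 RPKM, higher than in the empty vector (log2 4.39, limma adjusted p = 0.033). For 8 platelet markers it was 342 to 605 RPKM, and the other groups reached 32.1 and 14.0 RPKM. The 6 housekeeping genes summed to 2896 to 3556 RPKM, against 9337 to 12615 RPKM and 9645 to 14231 RPKM. Of these, 5 were called lower than in the empty vector and 1, *ACTB*, higher. *ACTB* was at 2063, 2496 and 2476 RPKM there, against 1043, 1055 and 1200 RPKM in the empty vector. The 10 HEK293T markers summed to 8.23 to 11.7 RPKM under the label hPRM1, where *LIN28B* and *IGF2BP1* were among 6 markers listed at 0, against 3136 to 4817 RPKM in the empty vector and 1444 to 5244 RPKM in hPRM2. Most of each sum was *CKB*, at 2915, 2871 and 4609 RPKM in the empty vector. It was at 5061, 1311 and 1637 RPKM in hPRM2, and at 9.13, 6.97 and 10.7 RPKM under the label hPRM1. The library names of the 3 with the label hPRM1 in the sample descriptions end in a run of consecutive numbers apart from that of the other 6. Whether that marks a batch is not stated, and it cannot be told apart from the label. They are called the libraries labelled hPRM1 throughout, and each direction drawn from them is one of these libraries. Estimated reads on genes per library were 7930000 to 10790000 for the empty vector, 4210000 to 5860000 for the libraries labelled hPRM1 and 1270000 to 2650000 for hPRM2. Replicates 2 and 3 of hPRM2 stood apart from the other 7 libraries, with RPKM that summed to 21091885 and 18155041 over all genes against at most 3798071 elsewhere.

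In the empty vector, ferritin had the highest RPKM of the 10 genes. *FTH1* averaged 1270 ± 108 RPKM and *FTL* 541 ± 100 RPKM (SD, n = 3 each), and the other 8 genes had means between 1.11 and 39.7 RPKM. Below ferritin came *NCOA4*, *IREB2*, *SLC25A28*, *TFRC* and *SLC25A37* in that order, each with a range that overlapped the next. *SLC11A2*, *ACO1* and *SLC11A1* followed, with ranges that did not overlap. In hPRM2, *FTH1* (1339 ± 106 RPKM) and *FTL* (700 ± 60.8 RPKM; SD, n = 3 each) again stood highest, and each of the 8 genes below them overlapped the next in the order of means. Another order held for the libraries labelled hPRM1, in which *SLC25A37* averaged 2419 ± 334 RPKM and lay above *FTL* (1687 ± 148 RPKM) and *FTH1* (1355 ± 153 RPKM; SD, n = 3 each), with ranges that did not overlap.

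**Figure D1:**
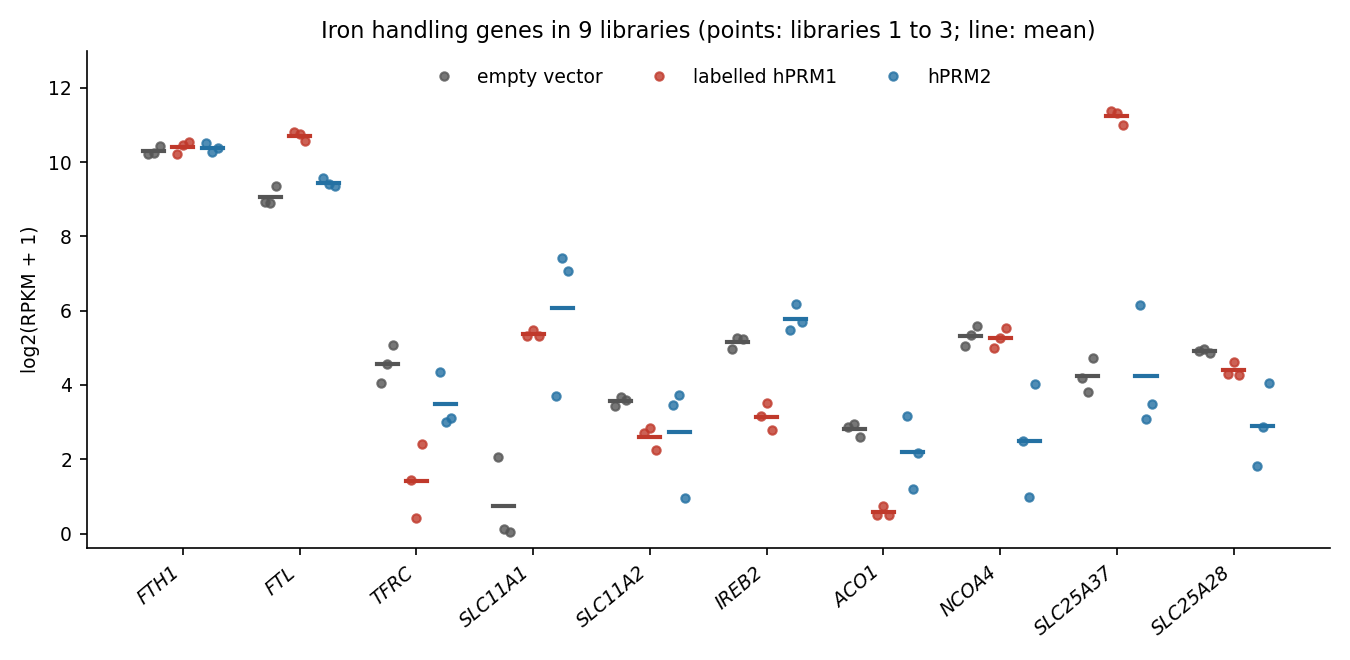
Level of each of the 10 genes as log2(RPKM + 1) in the 9 libraries. Points are libraries and short lines are means of 3 libraries of the empty vector (grey), the libraries labelled hPRM1 (red) and hPRM2 (blue). *FTH1* overlaps between all 3 groups on this scale, *SLC25A37* is high in the 3 libraries labelled hPRM1, and the hPRM2 points of *SLC11A1*, *NCOA4* and *SLC25A37* are far apart.

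Each pair of groups was compared with limma on log2(RPKM + 1), and a gene was called at an adjusted p of at most 0.05 and a difference of at least 2-fold. Genes were tested if at least 3 of the 6 libraries compared had at least 1 RPKM. In the libraries labelled hPRM1, *FTL*, *SLC11A1* and *SLC25A37* were called higher than in the empty vector and *TFRC*, *IREB2* and *ACO1* lower, which is 3 and 3 of 10 genes. *SLC11A1* passed the filter only through the libraries labelled hPRM1, and *TFRC* and *ACO1* only through the empty vector. The filter thus favoured the directions of these genes. Of all 13588 genes tested, 12.9% were called higher and 62.5% lower, and the groups did not overlap for 80.8% of them, against 8 of the 10 iron genes. The median log2 difference was -1.72 over all genes tested and -0.29 over the 10 genes. Between hPRM2 and the empty vector, limma called 0 of the 10 genes. Of these, 3 had an unadjusted limma p under 0.05, beside 3351 of all 13126 genes tested. The study's own kind of per-gene test called 0 as well, as did limma without replicate 2 or without replicate 3 of hPRM2. Limma called 1 without hPRM2 replicate 1, 1 after quantile normalization (*SLC11A1* in both) and 3 in the fit of all 9 libraries. Of 13126 genes tested, 1.36% were called higher and 1.37% lower, and the groups did not overlap for 35.9%, against 4 of the 10 iron genes. Of all genes, 179 were higher and 180 lower, and 220 and 82 after median-of-ratios rescaling or 342 and 70 after quantile normalization. The median log2 difference was -0.72 over all genes tested and -0.31 over the 10 genes. Between the libraries labelled hPRM1 and hPRM2, 3 genes were called higher (*FTL*, *NCOA4* and *SLC25A37*) and 3 lower (*TFRC*, *IREB2* and *ACO1*), where 16.0% and 37.0% of 11756 genes tested were called. *NCOA4* passed the filter only through the libraries labelled hPRM1, and *TFRC* and *ACO1* only through hPRM2. The groups did not overlap for 7 of the 10 genes and for 62.0% of all genes tested, and the median log2 difference was -0.05 over the 10 genes and -0.97 over all. The 3 comparisons share libraries. In bulk RNA, fewer cells of a type and less RNA per cell cannot be told apart.

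**Figure D2:**
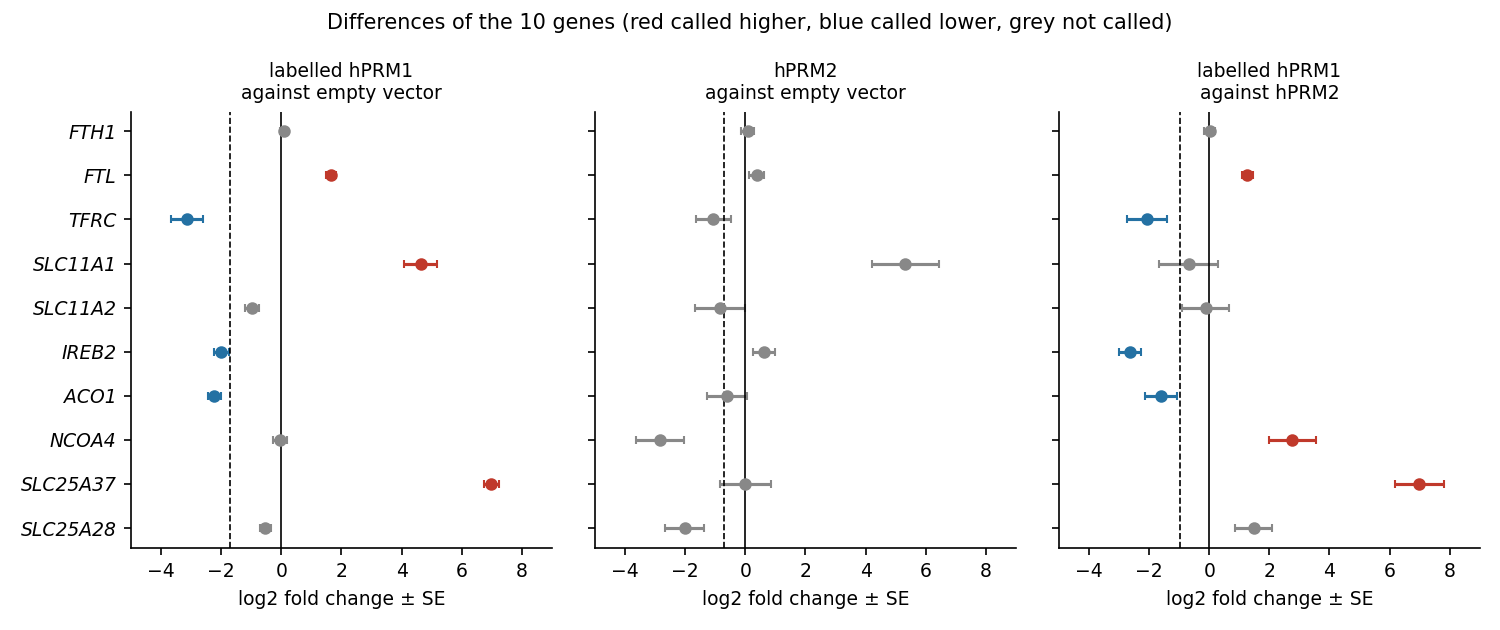
Log2 fold change of each gene with its standard error in the 3 comparisons, from limma on log2(RPKM + 1). Red points were called higher, blue points lower and grey points not called, and the dashed line is the median of all genes tested (-1.72, -0.72 and -0.97). *SLC25A37* and *SLC11A1* lie farthest to the right in the first panel, and in the middle panel every point is grey.

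The heavy chain of ferritin, *FTH1* (ENSG00000167996, chr11:61959718-61967660, minus strand, in GENCODE 29 on GRCh38 as for all genes here), which oxidises iron as it enters the shell, had overlapping values in the 3 groups. It stood at 1192, 1224 and 1394 RPKM in the empty vector, at 1185, 1401 and 1480 RPKM in the libraries labelled hPRM1, and at 1450, 1238 and 1329 RPKM in hPRM2. The 3 means lay between 1270 and 1355 RPKM. The log2 difference from the empty vector was 0.09 ± 0.15 (SE; 95% interval -0.26 to 0.44; limma adjusted p = 0.584) for the libraries labelled hPRM1 and 0.08 ± 0.21 (SE; 95% interval -0.42 to 0.57; limma adjusted p = 0.829) for hPRM2. Since the median of all genes lay at -1.72 in the former comparison, *FTH1* stood 1.81 above it, higher than 78.9% of the genes tested, and after median-of-ratios rescaling of the libraries the log2 difference was 2.28 (adjusted p = 5.6e-05).

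The light chain, *FTL* (ENSG00000087086, chr19:48965301-48966878, plus strand), which helps to form the iron core, was higher in the libraries labelled hPRM1. It was at 489, 478 and 657 RPKM in the empty vector, at 1807, 1732 and 1522 RPKM in the libraries labelled hPRM1, and at 768, 684 and 649 RPKM in hPRM2. All libraries labelled hPRM1 lay above all others. The blood cell markers given above moved with it, and their part was not tested. The difference from the empty vector was 3.14-fold (log2 1.65 ± 0.17, SE; limma adjusted p = 1.4e-04), and that from hPRM2 was 2.41-fold (log2 1.27 ± 0.18, SE; limma adjusted p = 0.0017). The lowest hPRM2 library lay just below the highest empty vector library, and the log2 difference between these groups was 0.38 ± 0.25 (SE; 95% interval -0.21 to 0.98; limma adjusted p = 0.359).

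*NCOA4* (ENSG00000266412, chr10:46005088-46030714, minus strand), the receptor that hands ferritin to the autophagosome, had its lowest values in hPRM2. It was at 32.0, 39.8 and 47.3 RPKM in the empty vector, at 31.0, 37.8 and 45.7 RPKM in the libraries labelled hPRM1, and at 4.66, 0.970 and 15.4 RPKM in hPRM2. Every hPRM2 library lay below every other library, and the other 2 groups nearly coincided. The hPRM2 value was 7.09-fold lower than the empty vector (log2 -2.83 ± 0.80, SE), which missed the threshold (limma adjusted p = 0.0995) and passed it when all 9 libraries were fitted together (adjusted p = 0.0246). Against hPRM2 the libraries labelled hPRM1 were 6.82-fold higher (limma adjusted p = 0.0250), a call that leaving out any 1 of them ended (adjusted p between 0.063 and 0.084). The log2 difference of 2.77 was 2.01 without hPRM2 replicate 2 and 3.53 without hPRM2 replicate 3. They differed from the empty vector by -0.056 on the log2 scale (95% interval -0.62 to 0.51; limma adjusted p = 0.836), a value that turned to 2.07 after median-of-ratios rescaling. The hPRM2 values rest on few reads, an estimated 2 to 4 in replicate 2 and at most 82 in replicate 3, depending on which transcript length is used.

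*TFRC* (ENSG00000072274, chr3:196027183-196082189, minus strand), the receptor through which cells take up transferrin, was lowest in the libraries labelled hPRM1. It was at 15.7, 22.5 and 32.6 RPKM in the empty vector, at 1.73, 0.342 and 4.30 RPKM in the libraries labelled hPRM1, and at 19.6, 7.03 and 7.65 RPKM in hPRM2. All libraries labelled hPRM1 lay below all others, while hPRM2 replicate 1 lay within the empty vector and replicates 2 and 3 below it. Replicate 2 of those labelled hPRM1 had an estimated 7 reads at most. The fall against the empty vector was 8.78-fold (log2 -3.13 ± 0.53, SE; limma adjusted p = 0.0015), past the median of all genes by -1.42, and 20.2% of the genes tested had a lower value. This call was lost after median-of-ratios rescaling (log2 -1.38, adjusted p = 0.115) and quantile normalization (log2 -1.56, adjusted p = 0.0603). Against hPRM2 the libraries labelled hPRM1 were 4.19-fold lower (limma adjusted p = 0.0402), and leaving out any 1 library other than replicate 3 of those labelled hPRM1 ended that call (adjusted p between 0.053 and 0.15). Between hPRM2 and the empty vector the log2 difference was -1.07 ± 0.58 (SE; limma adjusted p = 0.283).

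*SLC11A2* (ENSG00000110911, chr12:50979401-51028566, minus strand), the transporter that passes endosomal iron to the cytosol, was called in no comparison of all libraries. It was at 9.76, 11.8 and 11 RPKM in the empty vector, at 5.58, 6.15 and 3.73 RPKM in the libraries labelled hPRM1, and at 10, 12.3 and 0.960 RPKM in hPRM2. Every value labelled hPRM1 lay below the empty vector, and hPRM2 replicate 3, with an estimated 6 reads at most, stood apart from replicates 1 and 2. The difference of the libraries labelled hPRM1 from the empty vector, 1.95-fold lower (log2 -0.96 ± 0.24, SE; limma adjusted p = 0.0078), fell short of 2-fold. It passed 2-fold and was called without empty vector replicate 1 (log2 -1.03) and without replicate 1 or 2 of those labelled hPRM1 (log2 -1.02 and -1.08). It was smaller than the shift of the median gene, and after median-of-ratios rescaling it turned to a log2 value of 0.95 (adjusted p = 0.0093).

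*SLC11A1* (ENSG00000018280, chr2:218382029-218396894, plus strand), the metal transporter of phagosomes, had its lowest values in the empty vector. It was at 3.21, 0.0875 and 0.0257 RPKM in the empty vector, which is an estimated 92, 3 and 1 reads. Those labelled hPRM1 had 39.0, 43.9 and 39.2 RPKM, and the hPRM2 libraries had 12.1, 171 and 133 RPKM, or an estimated 116, 783 and 769 reads. All 6 of these libraries lay above the 3 of the empty vector. In both comparisons with the empty vector *SLC11A1* passed the filter only through the other group, so the filter favoured this direction. In the libraries labelled hPRM1 the difference was 24.9-fold on the scale of RPKM + 1 (log2 4.64 ± 0.55, SE; limma adjusted p = 2.6e-04), and without empty vector replicate 1, the highest of its group, the log2 difference was 5.30 (adjusted p = 3.6e-05). In hPRM2 it was 40.1-fold (log2 5.32 ± 1.12, SE), higher than 99.7% of the genes tested, and it missed the threshold (limma adjusted p = 0.0574). Without hPRM2 replicate 1, which had the lowest value of the 3, the log2 difference was 6.50 (adjusted p = 0.0081), and quantile normalization (adjusted p = 0.0292) and the fit of all 9 libraries (adjusted p = 0.0098) also passed it. With any 1 of the other 5 libraries left out it lay between 4.64 and 5.99 and was not called. The 2 groups with high values overlapped (log2 difference -0.69, 95% interval -3.09 to 1.71; limma adjusted p = 0.596), but without hPRM2 replicate 1 the libraries labelled hPRM1 were lower and called so (log2 -1.87, adjusted p = 0.0011). After median-of-ratios rescaling the difference turned to 1.18.

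Markers of neutrophils and monocytes, cells known to express *SLC11A1*, differed between these 2 groups. Under the label hPRM1, 14 of 15 such markers averaged at least 1 RPKM and *FCGR3B* was listed at 0. In hPRM2, 9 of the 15 were listed at 0 in all 3 libraries, among them *S100A9*, *LYZ*, *CSF3R* and *TYROBP*, while 5 averaged at least 1 RPKM. Of the markers above 0 in hPRM2, *CD14* was at 17.8 RPKM in replicate 1 and at 0 in the other 2, *ITGAM* was at 0, 0.350 and 17.5 RPKM, and *FCN1* was at 0, 2.29 and 2.87 RPKM. *S100A8* was at 1.54, 0 and 2.54 RPKM. *VCAN* was at 4.75, 13.7 and 43.6 RPKM, against 40.7, 38.0 and 39.8 RPKM in the empty vector. *CTDSP1*, the next gene downstream on the same strand, was at 18.9, 26.3 and 19.2 RPKM in the empty vector, at 40.6, 50.6 and 51.8 RPKM under the label hPRM1, and at 10.7, 3.95 and 19.8 RPKM in hPRM2. The part of these markers or of the neighbour in the level of *SLC11A1* was not tested.

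*IREB2* (ENSG00000136381, chr15:78437431-78501456, plus strand), the iron regulatory protein that is degraded in iron-replete cells, had its lowest values in the libraries labelled hPRM1 and its highest in hPRM2. It was at 30.1, 37.5 and 36.9 RPKM in the empty vector, at 7.93, 10.4 and 5.89 RPKM in the libraries labelled hPRM1, and at 43.9, 71.5 and 50.7 RPKM in hPRM2. The 3 groups did not overlap. *IREB2* was 4.02-fold lower in the libraries labelled hPRM1 than in the empty vector (log2 -2.01 ± 0.25, SE; limma adjusted p = 3.1e-04) and 6.22-fold lower than in hPRM2 (log2 -2.64 ± 0.37, SE; limma adjusted p = 0.0016). The former value was close to the median of all genes, only -0.29 from it, and after median-of-ratios rescaling it was 0.045 (adjusted p = 0.870). The difference of hPRM2 from the empty vector was 1.55-fold (log2 0.63 ± 0.37, SE; limma adjusted p = 0.314).

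*ACO1* (ENSG00000122729, chr9:32384603-32454769, plus strand) encodes the other regulatory protein, which acts as cytosolic aconitase when it holds an iron-sulfur cluster. It was at 6.35, 6.66 and 5.06 RPKM in the empty vector, at 0.402, 0.658 and 0.424 RPKM in the libraries labelled hPRM1, and at 8.0, 1.31 and 3.53 RPKM in hPRM2. The values labelled hPRM1 lay below all others, and the hPRM2 libraries lay on both sides of the empty vector. All values labelled hPRM1 were under 1 RPKM. *ACO1* thus passed the filter only through the group compared with them, which favoured its direction. Few reads lie behind some values, an estimated 6 to 12 in hPRM2 replicate 2 and at most 20 in the libraries labelled hPRM1. *ACO1* was 4.69-fold lower in the libraries labelled hPRM1 than in the empty vector (log2 -2.23 ± 0.22, SE; limma adjusted p = 1.1e-04), a value -0.51 from the median gene. After median-of-ratios rescaling the log2 difference was -0.89 (adjusted p = 0.0073), under 2-fold, and after quantile normalization -0.87 (adjusted p = 0.0075). It was 3.05-fold lower than in hPRM2 (limma adjusted p = 0.0456), which leaving out any 1 library labelled hPRM1 ended (adjusted p between 0.13 and 0.16), and hPRM2 differed from the empty vector by -0.62 ± 0.67 (SE) on the log2 scale (limma adjusted p = 0.565).

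*SLC25A37* (ENSG00000147454, chr8:23528805-23575463, plus strand), or mitoferrin 1, imports iron into the mitochondria of developing red cells. It had the largest difference of the 10 genes. It was at 17.3, 13 and 25.2 RPKM in the empty vector, at 2663, 2556 and 2039 RPKM in the libraries labelled hPRM1, and at 70.8, 7.44 and 10.3 RPKM in hPRM2. Those labelled hPRM1 lay far above all others, and hPRM2 replicate 1 lay above the empty vector while replicates 2 and 3 lay below it. The difference of the libraries labelled hPRM1 was 127-fold against the empty vector (log2 6.99 ± 0.26, SE; limma adjusted p = 3.8e-06) and 127-fold against hPRM2 (log2 6.98 ± 0.81, SE; limma adjusted p = 8.6e-04), higher than 99.4% and 99.3% of the genes tested. The latter value was 7.94 on the log2 scale without hPRM2 replicate 1 and 6.40 without hPRM2 replicate 2. Between hPRM2 and the empty vector the log2 difference was 0.01 ± 0.86 (SE; 95% interval -2.01 to 2.03; limma adjusted p = 0.996), and without hPRM2 replicate 1 it was -0.95 (adjusted p = 0.141). Of 12 tested markers of haemoglobin and red cell precursors, 11 were called higher than in the empty vector, beside 12.9% of all genes tested. *BPGM* was called lower (log2 -2.32, limma adjusted p = 2.0e-04). Of the 12, 6 had 0 RPKM throughout the empty vector. They passed the filter only through the libraries labelled hPRM1, so their direction was fixed in advance. *HBA1*, *HBA2*, *SLC4A1* and *HEMGN* reached 1 RPKM in fewer than 3 empty vector libraries and also passed only through those labelled hPRM1. Of the markers called higher, *SELENBP1* alone passed in the empty vector as well. Of 15 such markers, 14 averaged at least 1 RPKM in the libraries labelled hPRM1, whereas 9 had 0 RPKM throughout the empty vector and 10 throughout hPRM2, *HBB* and *ALAS2* among them in both. The other blood cell lists went the same way. Of the markers tested, 14 of 14 of neutrophils and monocytes, 15 of 15 of lymphocytes and 5 of 6 of platelets were called higher. Of these, 7, 13 and 3 had 0 RPKM throughout the empty vector. Only *VCAN* and *ITGA2B* of those called higher reached 1 RPKM in all 3 empty vector libraries. The rest passed the filter only through the libraries labelled hPRM1. The part of any of these markers in the level of *SLC25A37* was not tested.

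*SLC25A28* (ENSG00000155287, chr10:99610522-99620609, minus strand), or mitoferrin 2, serves mitochondria in most tissues. It was at 29.5, 30.4 and 28.2 RPKM in the empty vector, the tightest of all genes and groups here, at 18.5, 23.6 and 18.2 RPKM in the libraries labelled hPRM1, and at 2.50, 6.24 and 15.6 RPKM in hPRM2. The 3 groups did not overlap. *SLC25A28* was 1.45-fold lower in the libraries labelled hPRM1 than in the empty vector (log2 -0.53 ± 0.19, SE; limma adjusted p = 0.0364), under the 2-fold threshold, and after median-of-ratios rescaling the log2 value was 1.56 (adjusted p = 2.2e-04). In hPRM2 it was 4.05-fold lower than in the empty vector (log2 -2.02 ± 0.65, SE), which was not called (limma adjusted p = 0.126) except in the fit of all 9 libraries (adjusted p = 0.0338). The hPRM2 values rest on few reads, an estimated 5 to 8, 6 to 10 and 19 to 30, depending on the transcript length used.

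The scaling of the libraries changed which genes were called for the libraries labelled hPRM1. In these libraries, all genes summed to between 2476051 and 2616916 RPKM. The 15 markers of haemoglobin and red cell precursors alone made up 2061255.5 to 2267599.1 RPKM of that. No other library had more than 66.7 RPKM for these markers. Their part in the shift of the median gene under the label hPRM1 was not tested. Against the empty vector, the median of all genes tested lay at -1.72 with the deposited values, at -0.12 after median-of-ratios rescaling and at -0.30 after quantile normalization. Under either rescaling 6 of the 10 genes were called higher (*FTH1*, *FTL*, *SLC11A1*, *NCOA4*, *SLC25A37* and *SLC25A28*) and 0 lower, in place of 3 higher and 3 lower. Over all genes, 1750 were called higher and 8491 lower with the deposited values, 3919 and 3925 after median-of-ratios rescaling, and 3475 and 4388 after quantile normalization. *FTL*, *SLC11A1* and *SLC25A37* were called higher under all 3 scalings. Against hPRM2, 5 were called higher and 0 lower after median-of-ratios rescaling, and 5 higher and 1 lower (*IREB2*) after quantile normalization, with 3662 higher and 2148 lower, and 2897 and 3104, over all genes. Relative to the median gene of the deposited values, 7 of the 10 genes lay above and *TFRC*, *ACO1* and *IREB2* below.

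**Figure D3:**
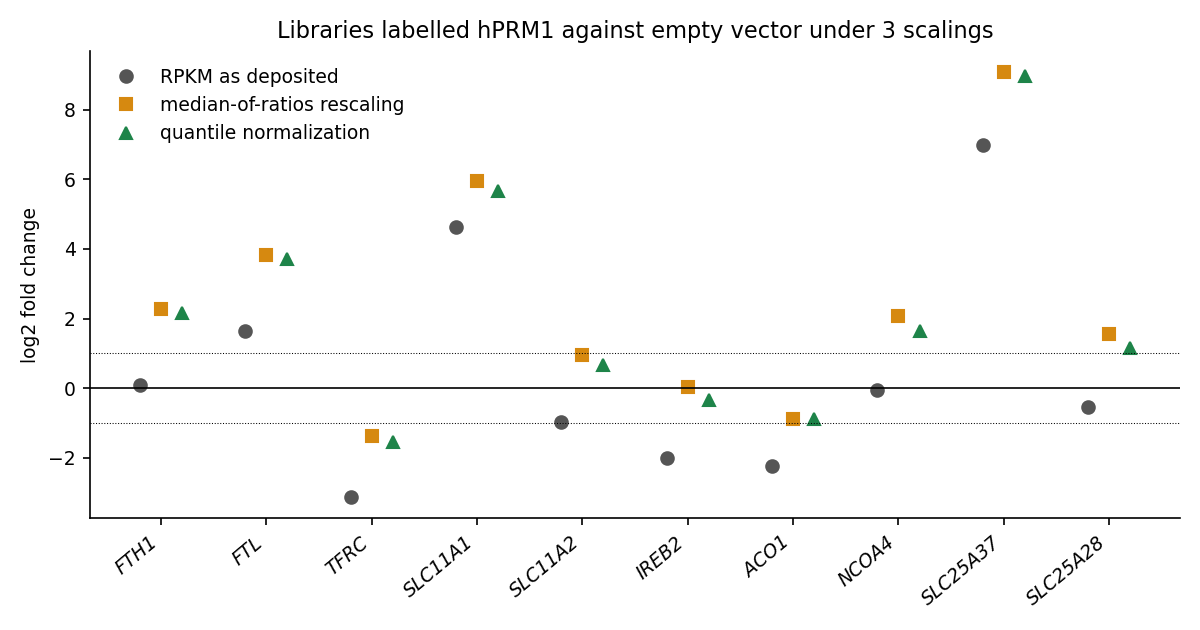
Log2 fold change of the libraries labelled hPRM1 against the empty vector with the deposited RPKM (circles), after median-of-ratios rescaling (squares) and after quantile normalization (triangles). The dotted lines mark 2-fold differences. Rescaling lifts every gene, so that *FTH1*, *NCOA4* and *SLC25A28* pass the upper line and *ACO1* and *IREB2* no longer pass the lower line.

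The ratio of the RPKM of 2 genes within a library does not move when all values of that library are multiplied by a constant, and 5 such ratios were compared. The tests used RPKM + 1 for both genes, and that ratio can move where values are low. With 3 libraries against 3 the exact two-sided permutation test cannot go below p = 0.1, and over the 15 tests the smallest adjusted p was 0.167. *FTH1* exceeded *FTL* 2.44-, 2.56- and 2.12-fold in the empty vector and 1.89-, 1.81- and 2.05-fold in hPRM2, while under the label hPRM1 *FTH1* was 0.656, 0.809 and 0.972 times *FTL*. The 3 groups did not overlap, and the heavy to light ratio of the libraries labelled hPRM1 was 2.95-fold lower than that of the empty vector on the scale of RPKM + 1 (exact permutation p = 0.1).

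The ratio of *TFRC* to *FTH1*, uptake against storage, was 0.0131, 0.0184 and 0.0234 in the empty vector, 0.0135, 0.00568 and 0.00576 in hPRM2, and 0.00146, 2.4e-04 and 0.00291 in the libraries labelled hPRM1. The last group lay below both others, and on the scale of RPKM + 1 its ratio was 9.35-fold lower than in the empty vector (exact permutation p = 0.1). hPRM2 overlapped the empty vector (exact permutation p = 0.2). The ratio of *SLC25A37* to *SLC25A28* was below 1 in the empty vector (0.589, 0.429 and 0.893), whereas it was 144, 108 and 112 in the libraries labelled hPRM1 (exact permutation p = 0.1). In hPRM2 it was 28.4, 1.19 and 0.658, so that replicate 1 alone stood high (exact permutation p = 0.2).

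*SLC11A1* was at 0.329, 0.00742 and 0.00234 times *SLC11A2* in the empty vector, 7.0, 7.13 and 10.5 times in the libraries labelled hPRM1 and 1.21, 13.9 and 138 times in hPRM2. Both latter groups lay above the empty vector (exact permutation p = 0.1 for each) and overlapped each other (exact permutation p = 0.7). *IREB2* exceeded *ACO1* in every library, 4.75-, 5.63- and 7.29-fold in the empty vector, 19.7-, 15.8- and 13.9-fold in the libraries labelled hPRM1, and 5.49-, 54.8- and 14.3-fold in hPRM2. On the scale of RPKM + 1 the libraries labelled hPRM1 overlapped the empty vector for this ratio (exact permutation p = 0.4), and the direction of the difference turned with a pseudocount of 5. The level of *ACO1* there, at most 0.658 RPKM, lies under the pseudocount.

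**Figure D4:**
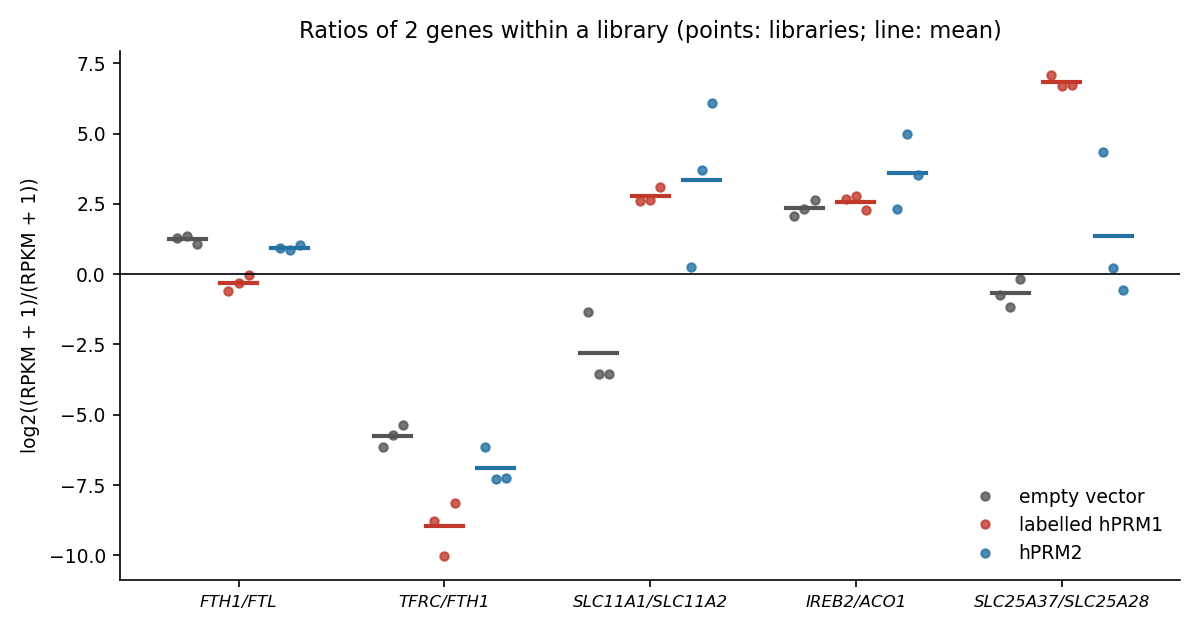
Ratios of 2 iron genes within each library, as log2 of (RPKM + 1) over (RPKM + 1). Points are libraries and lines are means of 3 libraries per group. On this scale the 3 libraries labelled hPRM1 lie apart from the empty vector for each ratio except *IREB2*/*ACO1*, and hPRM2 lies near the empty vector for *FTH1*/*FTL* and spreads widely for the ratios with *SLC11A1* and *SLC25A37*.

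The libraries of hPRM2 varied more among themselves. The SD of log2(RPKM + 1) over 3 libraries had a median of 1.05 over the 10 genes in hPRM2, against 0.22 in the empty vector, and 0.20 under the label hPRM1. Over all genes with at least 1 RPKM in at least 2 libraries of the group, the medians were 1.02, 0.39 and 0.33. Within hPRM2 the ferritin genes were steady, with a highest over lowest value of 1.17 for *FTH1* and 1.18 for *FTL*, while *NCOA4* ranged over 15.8-fold, *SLC11A1* over 14.1-fold and *SLC11A2* over 12.9-fold. Replicate 1 had the highest *TFRC*, *ACO1* and *SLC25A37* and the lowest *SLC11A1* and *IREB2* of the 3.

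The other genes of iron metabolism were followed in 5 lists with 81 genes, none of them among the 10. For the libraries labelled hPRM1, 62 of the 81 were tested against the empty vector, of which 7 were called higher, 43 lower and 12 not at all, where 12.9% of all genes tested were higher and 62.5% lower. All 7 called higher (*LTF*, *LCN2*, *STEAP4*, *TFR2*, *SLC40A1*, *CD163* and *HP*) reached 1 RPKM in fewer than 3 empty vector libraries. They passed the filter only through the libraries labelled hPRM1, so the filter favoured their direction. Some called lower, such as *SLC39A8*, *SLC39A14* and *NEO1*, passed it only through the empty vector. The median log2 difference of the 62 was -2.01, beside -1.72 for all genes tested. After median-of-ratios rescaling 15 were higher and 23 lower, beside 3919 and 3925 of all 13588 genes tested. After quantile normalization 15 were higher and 26 lower, beside 3475 and 4388. In hPRM2, limma called 0 of 56 tested, of which 15 had an unadjusted p under 0.05, beside 3351 of all 13126 genes. The median of the 56 was -0.74, beside -0.72 for all genes. After median-of-ratios rescaling 1 was called, beside 220 higher and 82 lower over all genes. After quantile normalization 2 were called, beside 342 and 70.

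Iron-sulfur cluster assembly had the lowest median of the 5 lists in the libraries labelled hPRM1 (-2.92), with 23 of 25 tested genes lower than in the empty vector and 0 higher, beside 62.5% and 12.9% of all genes. *BOLA3*, a factor that passes clusters to mitochondrial enzymes, was at 337, 312 and 306 RPKM in the empty vector but at 4.87, 1.33 and 2.02 RPKM in the libraries labelled hPRM1 (92.4-fold lower, limma adjusted p = 1.0e-05). *NFU1*, a cluster carrier of mitochondria, was 34.6-fold lower and *HSCB*, a cochaperone of the assembly scaffold, was 23.2-fold lower. After median-of-ratios rescaling 12 genes of this list were called lower and 1 higher, beside 3925 and 3919 of all 13588 genes tested. In hPRM2, 0 of 25 were called and the list median was -0.84.

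Of the list of iron uptake and reduction, 4 of 11 tested genes were higher and 5 lower in the libraries labelled hPRM1, beside 12.9% and 62.5% of all genes. The 4 passed the filter only through the libraries labelled hPRM1, and the 5 only through the empty vector. *LCN2* and *LTF*, iron-binding proteins of neutrophil granules, and *STEAP4*, a metal reductase, had 0 RPKM in each empty vector library. Under the label hPRM1 *LCN2* was at 53.4, 17.02 and 28.5 RPKM, *LTF* at 21.4, 5.57 and 6.52 RPKM and *STEAP4* at 4.34, 5.76 and 7.40 RPKM. The neutrophil and monocyte markers moved with these genes, and their part was not tested. The zinc and iron importers *SLC39A8* and *SLC39A14* were 8.82-fold and 7.91-fold lower there, and *SLC22A17*, a receptor for lipocalin 2, was 8.43-fold lower. The list median was -0.68 with the deposited values and 0.55 after median-of-ratios rescaling, and leaving out the 3 genes at 0 in a whole group it was -1.37 and -0.59.

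Of heme transport and breakdown, 2 of 11 genes were higher and 5 lower in the libraries labelled hPRM1, beside 12.9% and 62.5% of all genes. The 2, *CD163* and *HP*, passed the filter only through these libraries, and *FLVCR1* only through the empty vector. *CD163*, the macrophage receptor for haemoglobin bound to haptoglobin, was at 12.8, 13.9 and 13.2 RPKM there and listed at 0 in the other 6 libraries, and *HP*, haptoglobin itself, was at 9.02, 9.37 and 3.08 RPKM, where the empty vector reached 0.329 RPKM. *PGRMC1*, a heme-binding membrane protein, was 31.4-fold lower, *BLVRA*, biliverdin reductase A, 6.63-fold lower and *FLVCR1*, a heme exporter, 5.46-fold lower. After median-of-ratios rescaling 6 genes of this list were higher and 2 lower, beside 3919 and 3925 of all 13588 genes tested.

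Of iron export and systemic control, 5 of 12 genes were tested, and *SLC40A1* (ferroportin, the iron exporter of the plasma membrane) was 2.15-fold higher in the libraries labelled hPRM1 (limma adjusted p = 0.0066), at 2.48, 3.35 and 3.91 RPKM against 1.46, 0.769 and 0.726 RPKM. The list had 1 higher and 3 lower genes, beside the same shares of all genes. The former passed the filter only through the libraries labelled hPRM1, and the latter only through the empty vector. *ERFE*, the erythroid hormone that lowers hepcidin, was at 32.7, 38.2 and 11.1 RPKM in the empty vector and listed at 0 in the libraries labelled hPRM1, *NEO1*, a coreceptor of hepcidin signalling, was 9.51-fold lower and *BMP6*, the ligand of that pathway, was 2.27-fold lower. Of iron chaperones, storage and sensing, 7 of 10 were lower and 0 higher, again beside 62.5% and 12.9% of all genes. *BOLA2*, which shares nearly identical copies in the genome and is therefore uncertain, was 36.3-fold lower, the mitochondrial channel *VDAC1* 21.8-fold lower and *GLRX3*, a cytosolic glutaredoxin that binds clusters, 12.5-fold lower. After median-of-ratios rescaling, 4 genes of this list were lower and 2 higher, beside 3925 and 3919 of all 13588 genes tested.

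**Figure D5:**
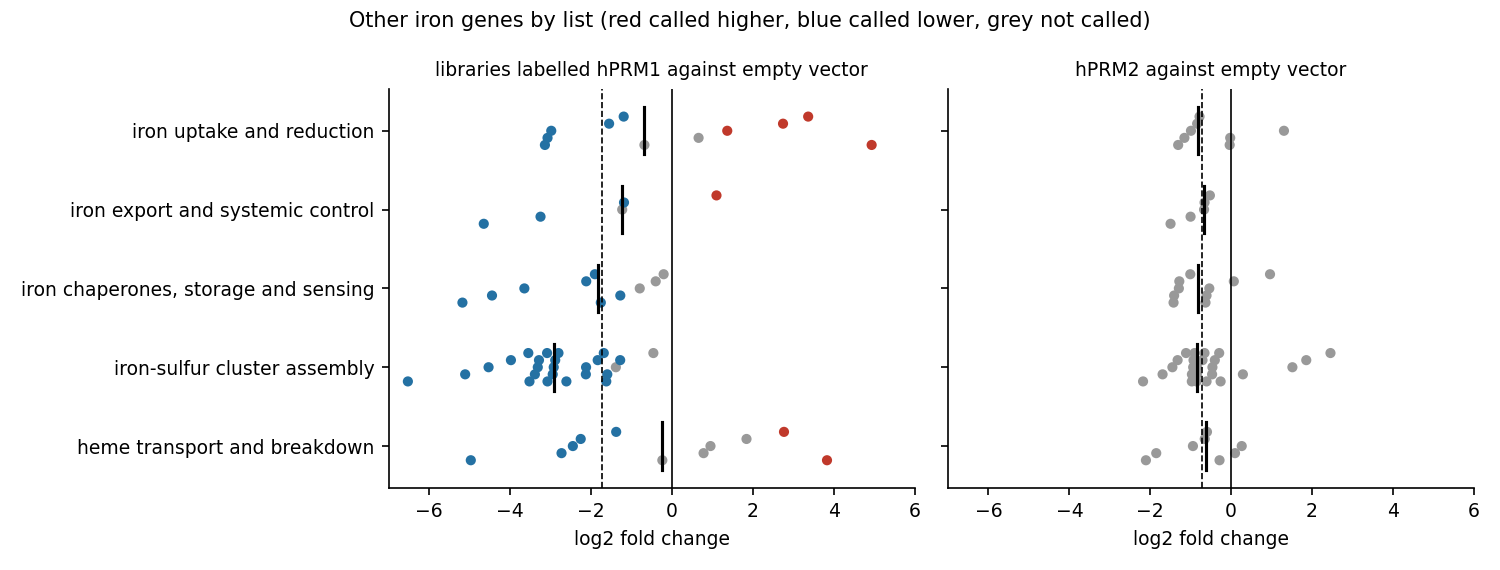
Log2 fold change of the tested genes of 5 iron gene lists against the empty vector, for the libraries labelled hPRM1 (left) and hPRM2 (right). Each point is a gene, red called higher, blue called lower and grey not called, short black lines are list medians and the dashed line is the median of all genes tested. On the left the iron-sulfur cluster list lies farthest below 0, and on the right every point is grey and the list medians lie beside the dashed line.

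Ferritin has many processed copies in the genome, which can share reads with *FTH1* and *FTL*. Of 42 copies in the table, 9 had a value above 0 in any library, and their summed level was at most 16.3 RPKM and at most 0.848% of *FTH1* plus *FTL*. The 4 copies with the highest means were *FTH1P10* (up to 13.6 RPKM, in hPRM2 replicate 2), *FTLP14* (up to 3.64 RPKM), *FTH1P2* (up to 2.24 RPKM) and *FTH1P5* (up to 2.68 RPKM). *BEST1*, which overlaps *FTH1* on the opposite strand, was at most 2.85 RPKM, and the antisense gene *AC027228.1* within *IREB2* was listed at 0 throughout. A pseudogene that overlaps *TFRC* on the opposite strand, *AC024937.1*, was at 16.7 RPKM in hPRM2 replicate 2 and at 0 in the other 8 libraries.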

How the data were processed

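The authors processed the reads with nf-core/rnaseq (FastQC, Cutadapt, STAR and Salmon against hg38, per the labels), removed mitochondrial genes and deposited RPKM for 57338 genes, 3 libraries per group, unpooled. Versions and annotation are not given in the sources used here. Counts were not used here, and reads on genes were estimated from the steps of low RPKM in 13863 genes with a single transcript in GENCODE 29 (600 to 20000 bases, 250 subtracted), so estimated reads per gene depend on the transcript length taken and cover counting error only. Symbols were found for 98.6% of identifiers, and 0 value columns were left unused.

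Libraries were compared with limma 3.58.1 (lmFit, eBayes with trend and robust) in R 4.3.3 on log2(RPKM + 1), with a fit per comparison, over genes of at least 1 RPKM in at least 3 of 6 libraries and Benjamini-Hochberg adjustment over all genes tested. Genes were called at an adjusted p of at most 0.05 and a 2-fold difference. The fold is on the scale of RPKM + 1 and understates changes of low genes. The fit was tested on simulated data. All 10 genes passed the filter in each comparison, some of them only through 1 of the 2 groups. Ratios within libraries were tested with SciPy 1.17.1, and tables and plots were made with Python 3.11.15, pandas 2.3.3, numpy 2.4.6 and matplotlib 3.10.9.

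The 10 genes, the 5 iron gene lists and the marker lists were chosen with earlier results of these data known. Named genes are the 10, *PRM1* and *PRM2*, up to 3 called higher and 3 called lower of each list against the empty vector, the 4 ferritin copies with the highest mean, and markers. Names of further markers, genes overlapping or next to the 10, and members of a called set were chosen after their values were seen. The alternatives changed the pseudocount (0.1 or 5), the filter (none, or at least 10 RPKM), the scaling (median-of-ratios or quantile), the fit (all 9 libraries together, a replicate block, or 1 library left out), the fold threshold (none) and the test (that of the study, gene by gene on RPKM). List counts under the rescalings, and list medians without genes at 0 in a whole group, were added after seeing the data. Same-numbered libraries did not deviate together (r between -0.08 and 0.08).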

Additional observations from a re-analysis of the deposited data

How the results depend on the processing

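Of the 10 genes, 6 were called for the libraries labelled hPRM1 against the empty vector, and 5 to 8 under the alternatives (5 to 7 when 1 library was left out). Both rescalings gave 6 as well, but with 6 higher and 0 lower. Against the empty vector, hPRM2 had 0 called, 1 after quantile normalization, 3 in the fit of all 9 libraries (1 higher, 2 lower) and 0 to 1 when 1 library was left out, the 1 without hPRM2 replicate 1. Between the libraries labelled hPRM1 and hPRM2, 6 were called, 0 by the study's per-gene test and 3 to 5 when 1 library was left out. These include *SLC11A1* without hPRM2 replicate 1 and *SLC25A28* without hPRM2 replicate 3 (log2 2.06), which were not among the 6, and there were 3 without replicate 1 or without replicate 2 of those labelled hPRM1. The cause was not tested.

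Replicate numbers did not pair the libraries. The fit with a replicate block called 6, 0 and 4 of the 10 genes in the 3 comparisons. Over all genes it called 49 higher and 8 lower for hPRM2 against the empty vector, where 179 and 180 were called without it. For that comparison the study's per-gene test called 0 and 9, quantile normalization gave 342 and 70, median-of-ratios rescaling 220 and 82, the fit of all 9 libraries 507 and 1618, and the fit without hPRM2 replicate 1 gave 680 and 1577.

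Directions turned as follows, as log2 differences. For the libraries labelled hPRM1 against the empty vector, median-of-ratios rescaling gave 0.95 for *SLC11A2*, 0.045 for *IREB2*, 2.07 for *NCOA4* and 1.56 for *SLC25A28*, and quantile normalization gave 0.67, 1.64 and 1.14 for *SLC11A2*, *NCOA4* and *SLC25A28*. With 1 library left out, *NCOA4* ranged from -0.20 to 0.081. For hPRM2 against the empty vector, quantile normalization gave -0.35 for *FTH1* and 0.12 for *ACO1*, *SLC25A37* was -0.020 with a pseudocount of 0.1 and ranged from -0.95 to 0.59 with 1 library left out, and *SLC11A2* from -1.35 to 0.035. For the libraries labelled hPRM1 against hPRM2, median-of-ratios rescaling gave 1.18 for *SLC11A1* and 1.41 for *SLC11A2*, and quantile normalization 0.74 and 0.83. There *SLC11A2* was 0.010 with a pseudocount of 0.1, and with 1 library left out it ranged from -0.999 to 0.38, *FTH1* from -0.052 to 0.11 and the log2 ratio of *SLC11A1* to *SLC11A2* from -2.11 to 0.81. The log2 ratio of *IREB2* to *ACO1* in the libraries labelled hPRM1 against the empty vector was -0.61 with a pseudocount of 5. Of the values of single genes under the alternatives, 359 kept their direction and side of the threshold, 18 passed it, 34 lost it and 27 turned. Some alternatives gave no value for genes that the filter then removed, such as *ACO1* against hPRM2 without any 1 hPRM2 library. With the lowest depth, 1270000 to 2650000 reads, hPRM2 has the largest counting error.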
